A study of Mus musculus with 16 samples.

Results

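The genes described here build and regulate cell-cell contacts in E14TG2a mouse embryonic stem (ES) cells: the classical cadherins Cdh1, Cdh2 and Cdh3, the adhesion molecules Ceacam1 and Epcam, the claudins Cldn4 and Cldn7, and the tight junction proteins Tjp1 and Ocln. Members were chosen by name, with earlier results of these data known. Every probe annotated to 1 of the 9 symbols was taken. This gave 14 of the 24606 probes on the array and 9 of the 15967 genes named by them. Cdh2 was read by 4 probes, Cdh3 and Ceacam1 by 2 each, and the other 6 genes by 1 each.

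The study held ES cells at different levels of Nodal/Activin signaling, a branch of the TGFβ family whose receptors phosphorylate Smad2 and Smad3, and asked which genes follow each level. All groups, controls included, were HPRT- E14TG2a cells that first spent 6 h in KSR, a serum replacement medium without LIF, with 10 µM SB-431542 (SB), which blocks the receptor kinases used by Activin and Nodal. The cultures then received 25 ng/ml Activin (high signaling), 10 µM SB (low signaling), DMSO vehicle at a dilution of 1 in 5000 (endogenous signaling) or unsupplemented KSR for 18 h. Each group held 4 cultures of this single line, 1 each at passages 20, 21, 23 and 24 (replicates 1 to 4), and each culture was hybridized to 1 Illumina MouseRef-8 array, 16 in all.

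Cadherins join neighboring cells through calcium-dependent binding of their extracellular domains and are tied to the actin cytoskeleton by catenins, while claudins and occludin seal the space between cells and are anchored by the scaffold encoded by Tjp1. ES cells grow as compact epithelial-like colonies held together largely by E-cadherin, the product of Cdh1. Loss of E-cadherin with gain of N-cadherin, the product of Cdh2, is the textbook mark of an epithelial-mesenchymal transition, a process that TGFβ family ligands can drive in many epithelia.

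Mean array intensities ran from 486 to 760, with KSR replicate 2 lowest, and on each array 9816 to 10482 probes exceeded background. Across probes, arrays of the same group correlated at r = 0.990 to 0.994. Lefty1 and Lefty2, pathway targets that checked the treatments, rose by 1.29 and 1.56 on the log2 scale with Activin against DMSO and fell with SB (adjusted p at most 0.00188, limma). Since Lefty2 was above background on 0 of 4 SB arrays and Lefty1 on 1, the fall was at least 8.58-fold for Lefty2, and 28.7-fold for Lefty1 once its 3 undetected SB values were set to the lowest detected signal of their arrays. The 6 measured markers of ES cells were above background in every group, and 1 of them, the Nodal co-receptor gene Tdgf1, fell 1.99-fold with SB (adjusted p = 0.00122). In bulk RNA, fewer cells of a type and less RNA per cell cannot be told apart.

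Only part of this adhesion set was detectable on the array. Probes for 3 chemoreceptor families (olfactory, vomeronasal and taste receptors), 1191 in number, served as a measure of background, and a probe counted as detected where it passed their 95th percentile on the same array, a threshold between 52.9 and 68.1. By this rule 7 of the 14 probes, from 6 of the 9 genes, were above background on 4 or more arrays. Cdh1, Cdh3 probe 1, Ceacam1 probe 1, Cldn4 and Tjp1 passed on 16 of 16 arrays, Cdh2 probe 1 on 15 and Cdh3 probe 2 on 14. The values are intensities with a background already subtracted, and values of different probes are not compared as levels.

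The other 7 probes were above background on 0 arrays. Epcam, a homophilic adhesion molecule of simple epithelia that is also a known surface marker of mouse ES cells, gave intensities from -12.7 to 14.2 with its only probe. Cldn7, a claudin known to associate with Epcam, gave -20.7 to 12.8, and Ocln, which encodes occludin, gave -15.8 to 32.7. For these 3 genes no level could be measured, and whether the transcript or the probe was the limit was not tested. Ceacam1 probe 2, annotated to another transcript than probe 1, gave 16.2 to 52.4, and Cdh2 probes 2, 3 and 4 together gave -29.3 to 26. In the deposited normalized values these probes stood at the floor of 40, except for Ceacam1 probe 2 in SB replicate 4 at 46.8.

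**Figure D1:**
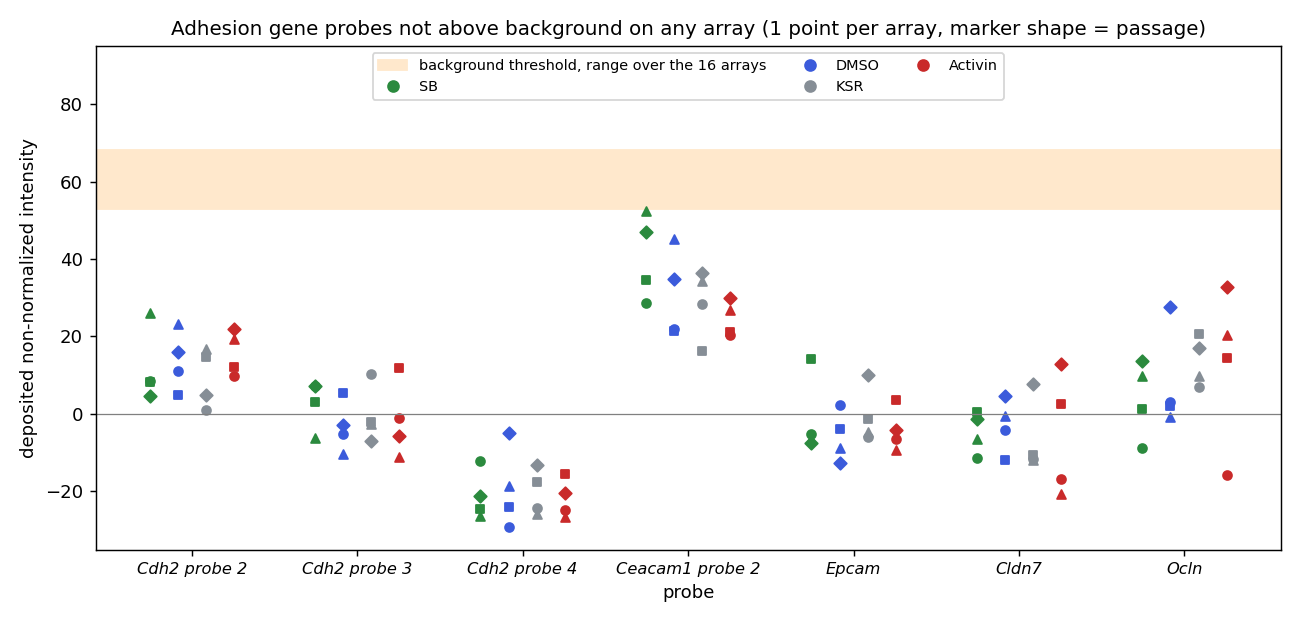
Deposited non-normalized intensity (vertical axis) of the 7 adhesion gene probes that were above background on 0 of the 16 arrays (horizontal axis), with 1 point per array, colored by treatment and shaped by passage. All points lie below the shaded range of the background threshold, 52.9 to 68.1.

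Start-site sequences are given for Ceacam1, Cldn4 and Tjp1, the members above background on every array that had an entry in the promoter table used. Ceacam1 passed the test for SB against DMSO, and the other 2 are junction genes that did not. Each line holds the 250 bases before an annotated start on GRCm38.p6 from RefSeq, 5′ to 3′ on the minus strand. The windows are chr7:25477626-25477875 for Ceacam1, chr5:134946935-134947184 for Cldn4 and chr7:65371245-65371494 for Tjp1. That of Tjp1 lies within the annotated span of its gene. That of Ceacam1 overlaps the span of its gene, which ends at 25477647. Capitals mark the letters CAGAC (or GTCTG on the other strand), the core bound by Smad proteins, and CACCTG (or CAGGTG), the E-box bound by the Snai and Zeb repressors of epithelial genes.
Ceacam1: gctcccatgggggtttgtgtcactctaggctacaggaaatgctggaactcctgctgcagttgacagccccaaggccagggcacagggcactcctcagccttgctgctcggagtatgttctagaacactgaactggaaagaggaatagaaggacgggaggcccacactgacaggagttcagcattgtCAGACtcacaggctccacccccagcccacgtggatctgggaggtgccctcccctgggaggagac
Cldn4: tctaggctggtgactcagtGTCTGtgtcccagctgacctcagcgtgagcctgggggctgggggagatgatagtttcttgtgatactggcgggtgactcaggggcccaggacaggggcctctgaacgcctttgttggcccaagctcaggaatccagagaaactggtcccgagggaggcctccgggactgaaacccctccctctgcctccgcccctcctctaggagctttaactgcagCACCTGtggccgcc
Tjp1: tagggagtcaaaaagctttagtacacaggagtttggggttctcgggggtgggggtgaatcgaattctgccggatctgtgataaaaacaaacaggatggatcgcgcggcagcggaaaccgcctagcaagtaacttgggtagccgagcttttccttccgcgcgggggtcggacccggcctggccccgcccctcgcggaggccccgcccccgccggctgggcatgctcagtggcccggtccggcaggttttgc
The Ceacam1 window held 1 CAGAC match and 0 E-box matches, the Cldn4 window 1 of each, and the Tjp1 window 0 of both. Over 32851 RefSeq promoter windows of the same 250 bases, 42.2% held CAGAC on either strand and 17.2% held the E-box. The CAGAC letters of the Ceacam1 window were also present in that of Cldn4. A match describes the letters only.

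Ceacam1 was the only member to pass the test for SB against DMSO. It encodes a member of the carcinoembryonic antigen family of cell surface proteins, with immunoglobulin-like domains that bind each other across neighboring cells. Probe 1 gave intensities of 508, 552.5, 634.7 and 675.7 with SB at passages 20, 21, 23 and 24, against 321.7, 395.1, 374.3 and 344.8 with DMSO. The Activin arrays gave 237, 324.1, 369.8 and 357.2, and the KSR arrays 314.7, 242.6, 394.9 and 404.7. All 4 SB arrays stood above all other 12 arrays, and the other 3 groups overlapped.

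After normalization Ceacam1 was 9.41 ± 0.07 with SB, 8.79 ± 0.14 with DMSO, 8.72 ± 0.10 with KSR and 8.60 ± 0.12 with Activin (log2 intensity, mean ± SD, n = 4 each). SB raised it over DMSO by 0.62 on the log2 scale (SE 0.09), a 1.54-fold difference with a 95% confidence interval of 1.36 to 1.74 (limma, adjusted p = 3.55e-04 over all probes). The difference held in each passage, at 0.60, 0.50, 0.60 and 0.79. By p-value Ceacam1 ranked 22 among the 24606 probes, and by size of the rise it ranked 9. In the deposited normalized values the ratio of SB to DMSO lay between 1.51 and 1.88 in the 4 passages, all above the 1.5-fold line that the study's methods set.

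With Activin, Ceacam1 stood 0.19 below DMSO on the log2 scale, lower in 4 of 4 passages (95% confidence interval -0.37 to -0.01, unadjusted p = 0.0405, adjusted p = 1). The groups overlapped, so a fall with Activin was not resolved. Between the ends of the gradient, Ceacam1 was 0.81 lower with Activin than with SB, a 1.76-fold difference (adjusted p = 3.03e-06). These 3 comparisons share arrays and are set side by side only. In order of level the groups ran SB, DMSO, KSR and Activin, and among the lower 3 groups neither DMSO against KSR nor Activin against DMSO passed the test.

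Probe 2 of Ceacam1 was not above background on any array, so no fold is given for it. Its log2 values were 6.93 ± 0.11 with SB, 6.81 ± 0.13 with DMSO, 6.79 ± 0.08 with KSR and 6.73 ± 0.05 with Activin. They stood in the same order as probe 1, with the SB and Activin arrays apart, and did not pass the test (adjusted p = 0.475 for Activin against SB). Among the 6 measured relatives of Ceacam1, 0 passed the test in any of the 3 comparisons and 0 had an unadjusted p under 0.05, and 5 of the 6 were above background on no array. Ceacam20 was the one detected, at a difference of -0.0002 with SB against DMSO (95% confidence interval -0.22 to 0.22).

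Of the 7 measured markers of trophectoderm, the outer layer of the early embryo that founds the placenta, 2 rose with SB beside Ceacam1, and their part in its change was not tested. Tfap2c rose by 0.61 (adjusted p = 0.00676). Gata3, above background on 4 arrays, all of them SB, rose at least 1.22-fold (adjusted p = 0.00433). The study chose both genes on these same arrays, so their count is not independent evidence. The other 5 did not pass, with Krt7 at 0.15, Cdx2 at 0.07, Elf5 at -0.06, Eomes at -0.11 and Hand1 at -0.14, and Elf5 and Hand1 were above background on 0 arrays. The summed normalized intensity of the 7 genes was 3713 to 4455 with SB, 2566 to 3211 with DMSO, 2461 to 2994 with KSR and 1937 to 2671 with Activin. Tfap2c alone made up 75.9% to 86.7% of this sum. Without it the sum of the other 6 was 492 to 609 with SB, 462 to 546 with DMSO, 469 to 523 with KSR and 427 to 512 with Activin, and the groups overlapped.

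The genes whose level ran most like Ceacam1 over the 16 arrays, among 9511 other detected probes, were Akr1b8 (Pearson r = 0.93), Dnajc6 (0.93) and Cyp7b1 (0.92). Akr1b8 encodes an aldo-keto reductase, Dnajc6 the clathrin uncoating cochaperone auxilin and Cyp7b1 an oxysterol hydroxylase. The arrays share 4 treatments, and once group means were removed the same correlations were 0.53, 0.59 and 0.58.

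**Figure D2:**
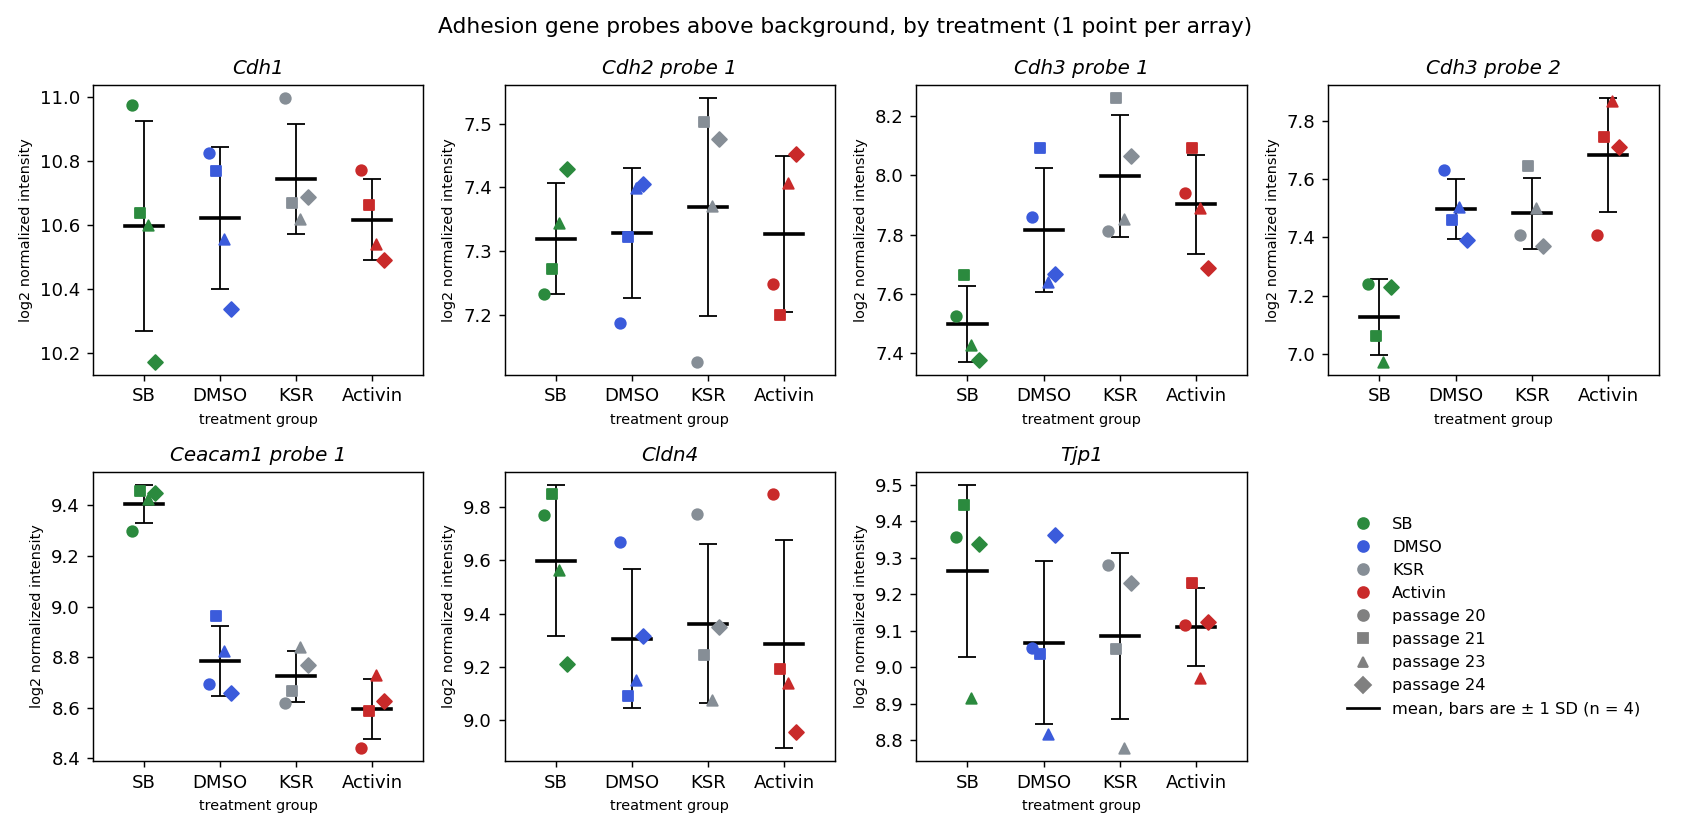
Normalized log2 intensity (vertical axes) of the 7 adhesion gene probes above background on 4 or more arrays, by treatment group (horizontal axes), with 1 point per array, shaped by passage, and bars for the mean ± SD of 4 arrays. The SB arrays of Ceacam1 stand apart from the other 12, the SB group has the lowest mean for both Cdh3 probes, and the groups overlap for Cdh1, Cdh2, Cldn4 and Tjp1.

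Cdh3 stood on the other side of the gradient, lowest with SB in both of its probes. It encodes P-cadherin, a classical cadherin first described in placenta, and it is the next protein-coding gene to Cdh1 on the chromosome. Cdh3 is named by the study among genes lowered by SB, so its direction here is not independent evidence. By RT-PCR the study found it mainly lowered by SB, without significant change under Activin. After longer SB treatment in medium with serum, the study saw giant cells positive for P-cadherin protein. That is another measure at another time. Probe 1 gave 95.4, 108, 94.4 and 90.1 with SB at passages 20, 21, 23 and 24, against 147, 180, 119.8 and 128.6 with DMSO and 145.3, 201.7, 167.1 and 139.8 with Activin. The SB intensities were below all others. After normalization the lowest DMSO array, at 7.64, fell below the highest SB array, at 7.66.

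Against DMSO, Cdh3 probe 1 was 0.32 lower with SB on the log2 scale, lower in 4 of 4 passages, and did not pass the test (95% confidence interval -0.55 to -0.08, adjusted p = 0.581). Probe 2 gave 66, 46.7, 45.5 and 72.6 with SB and 114.2, 88.7, 102.9 and 91.1 with DMSO, with 2 of its 4 SB arrays below background. It was 0.37 lower with SB, without overlap between the groups, and did not pass either (95% confidence interval -0.58 to -0.17, adjusted p = 0.191). Both intervals exclude 0 before adjustment, and neither probe survives adjustment over all probes. With passage as a block the adjusted p in limma was 0.0994 for probe 1 and 0.118 for probe 2. In the deposited normalized values the ratio of SB to DMSO by passage was 0.63 to 0.73 for probe 1. For probe 2 it was 0.46 to 0.78, with SB replicate 3 at the floor of 40.

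The ends of the gradient separated Cdh3 more widely, but a rise with Activin over DMSO was not resolved. That difference was 0.09 for probe 1 (95% confidence interval -0.15 to 0.32) and 0.19 for probe 2 (-0.02 to 0.39). Neither passed the test. With Activin, probe 2 gave 79.7, 141.3, 162.9 and 143.9, and was 0.56 higher than with SB, a 1.47-fold difference (95% confidence interval 1.28 to 1.70, adjusted p = 0.00243). With the 2 background-level SB values raised to the lowest signal above background, the fold was 1.40. Without the arrays of passage 21 or without those of passage 23 this call was lost, and over all 20 alternatives the adjusted p ran from 4.44e-04 to 0.138. Probe 1 was 0.40 higher with Activin than with SB, without overlap, and passed only with passage as a block (adjusted p = 0.123, with the block 0.00811). In KSR probe 1 gave 144.7, 168.3, 157.7 and 209, and overlapped DMSO. Probe 2 stood at 7.48 ± 0.12 in KSR against 7.50 ± 0.10 with DMSO.

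Over the 16 arrays, the genes most like Cdh3 probe 1 were Adgrl1 (r = 0.90), Pcolce2 (0.86) and Ifitm1 (0.83). Once group means were removed these were 0.83, 0.86 and 0.90. The 2 Cdh3 probes correlated with each other at 0.60, and at 0.13 once group means were removed. Genes most like probe 2, the probe called between Activin and SB, were not searched.

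Cdh1 passed the test in no treatment comparison. E-cadherin expression holds the ES cell colony together, and Cdh1 was bright on all arrays, with intensities from 1124.1 to 1993.4. Its log2 levels were 10.60 ± 0.33 with SB, 10.62 ± 0.22 with DMSO, 10.74 ± 0.17 with KSR and 10.62 ± 0.13 with Activin. The 4 groups overlapped throughout. The difference from DMSO was -0.02 with SB (95% confidence interval -0.30 to 0.25) and -0.004 with Activin (-0.28 to 0.27). These intervals leave room for a fall of up to 1.23-fold with SB and of up to 1.21-fold with Activin.

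Cdh2 was dim and also passed in no treatment comparison. Probe 1 gave 58 to 107.3 over the 16 arrays, close to the background threshold, with log2 levels of 7.32 ± 0.09 with SB, 7.33 ± 0.10 with DMSO, 7.37 ± 0.17 with KSR and 7.33 ± 0.12 with Activin. SB differed from DMSO by -0.01 (95% confidence interval -0.20 to 0.18) and Activin by -0.002 (-0.19 to 0.19). A shift from Cdh1 to Cdh2 was therefore not resolved at 18 h with either treatment. The 6 measured transcription factors of the epithelial-mesenchymal transition had 0 calls in each of the 3 comparisons, and 0 had an unadjusted p under 0.05. Only 3 of the 6 were above background on 4 or more arrays, so for the rest a missing call says little.

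The tight junction members also passed in no treatment comparison. Cldn4 encodes a claudin of simple epithelia, and its log2 levels were 9.60 ± 0.28 with SB, 9.31 ± 0.26 with DMSO, 9.36 ± 0.30 with KSR and 9.29 ± 0.39 with Activin. Its SB intensities of 729.5, 735.3, 708.2 and 564 overlapped the DMSO intensities of 724.1, 437.5, 488.4 and 588.8. The difference of 0.29 did not pass (95% confidence interval -0.06 to 0.65, adjusted p = 0.958), and by passage it ran from -0.10 to 0.76. Tjp1, which encodes the scaffold ZO-1, was 9.26 ± 0.24 with SB and 9.07 ± 0.22 with DMSO, a difference of 0.20 that did not pass (-0.06 to 0.45, adjusted p = 0.971).

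In the comparison of SB with DMSO, 1 of the 14 member probes thus passed, beside 0.309% of all probes, and 2 of 14 did not overlap, beside 3.56% of all probes. With Activin against DMSO 0 of 14 passed in limma, beside 0.0203% of all probes, and 1 had an unadjusted p under 0.05, beside 3.58% of all probes. Between Activin and SB 2 of 14 passed, beside 0.898%, and 4 did not overlap, beside 4.58%. With passage as a block 3 passed between Activin and SB, beside 1.78%. DMSO against KSR gave 0 of 14, beside 0% of all probes, and at an unadjusted p under 0.05 it gave 0 of 14 beside 3.27%. Over the 9 genes the median difference between SB and DMSO was -0.01, beside -0.002 over all 15967 genes. Because the members were chosen with earlier results of these data known, these counts describe the list and do not test it.

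**Figure D3:**
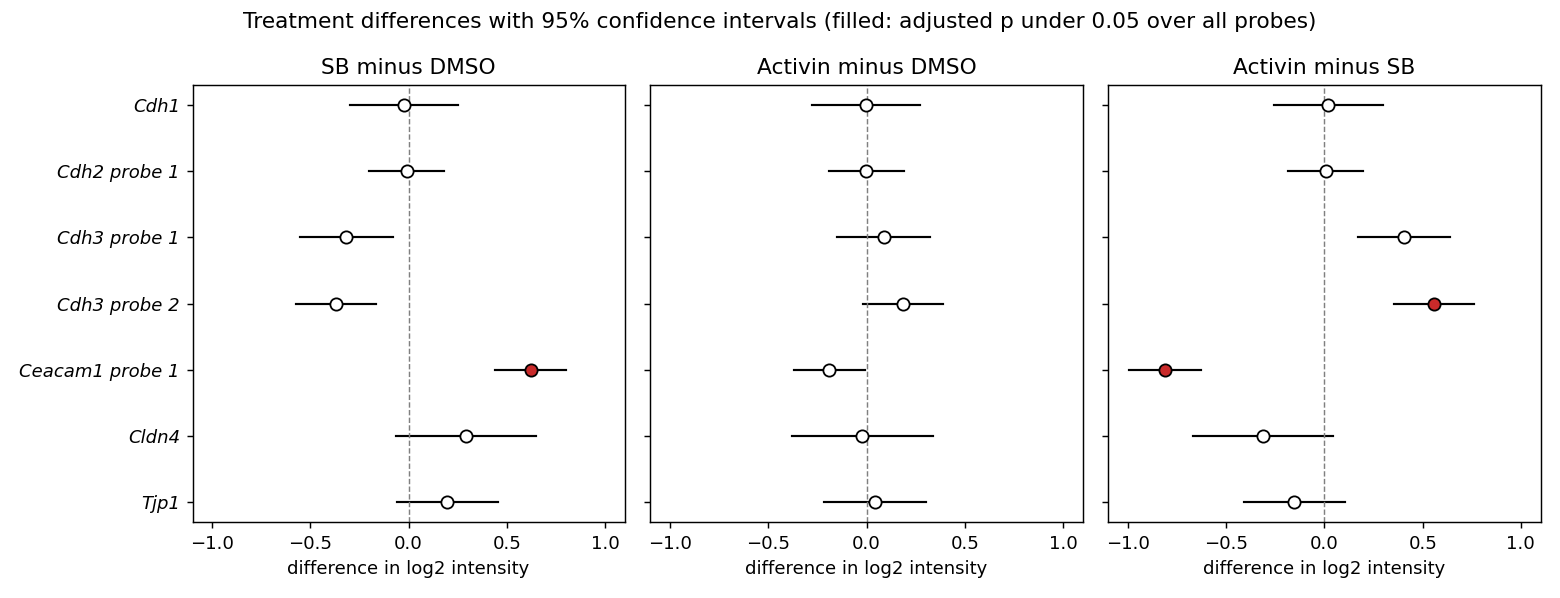
Differences in log2 intensity (horizontal axes) between treatment groups for the 7 adhesion gene probes above background, with 95% confidence intervals as lines and probes past the adjusted threshold filled. Ceacam1 lies at 0.62 for SB minus DMSO and -0.81 for Activin minus SB, and Cdh3 probe 2 at 0.56 for Activin minus SB.

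Partners of these genes gave no calls. Of 11 measured adherens junction partners, catenins and other cadherins among them, 0 passed in the 3 comparisons, with 1, 0 and 2 at an unadjusted p under 0.05 for SB against DMSO, Activin against DMSO and Activin against SB. Ctnnb1, which encodes β-catenin, differed by 0.005 between SB and DMSO (95% confidence interval -0.22 to 0.23). Of 24 further tight junction genes 0 passed, with 1, 1 and 3 at an unadjusted p under 0.05. One of these was Jam2, a junctional adhesion molecule, at 0.41 for Activin against SB, which passed only with passage as a block (adjusted p = 0.0839, with the block 0.0205). Median differences between SB and DMSO were 0.005 for the adherens junction partners and -0.002 for the tight junction genes.

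Among the other contacts, the gap junction gene Gja1, which encodes connexin 43 and was 1 of 3 measured gap junction genes, was 0.42 lower with Activin than with SB (adjusted p = 0.0254). Against DMSO it stood 0.30 higher with SB, which passed only with passage as a block (adjusted p = 0.437, with the block 0.0489). Of 7 desmosome genes, 4 keratins, 4 nectins and 7 genes of Epcam partners and epithelial regulators, 0 passed in any of the 3 comparisons. In the same order, 3, 3, 3 and 7 of these genes were above background on 4 or more arrays. At an unadjusted p under 0.05 these lists held 0, 0, 0 and 0 genes for SB against DMSO and 1, 0, 2 and 2 for Activin against SB. Of 11 mesenchymal genes 0 passed as well, with 2, 2 and 1 at an unadjusted p under 0.05. Only 6 of the 11 were above background on 4 or more arrays. Tgfbi, which encodes an extracellular matrix protein induced by TGFβ, was 0.45 lower with Activin than with SB and passed only with passage as a block (adjusted p = 0.175, with the block 0.00507). Vim, the intermediate filament gene of mesenchyme, differed by 0.14 between SB and DMSO (95% confidence interval -0.09 to 0.38).

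The cultures differed between passages more than between treatments for several members. Treatment took 91.5% of the sum of squares of Ceacam1 over the 16 arrays and 72.7% and 59.1% for probes 2 and 1 of Cdh3. Passage took 70.7% for Cdh1, 66.5% for Cdh2 probe 1, 62.3% for Tjp1 and 56.5% for Cldn4. For Ceacam1 passage took 4.86%. Among the detected genes, Ceacam1 and Cdh3 thus had more of their spread between treatments, and the other 4 had more between passages. For member probes not above background on any array, passage took from 25.7% (Cdh2 probe 4) to 53.8% (Ocln), with Cldn7 at 53.0%. A large passage share was therefore not particular to the detected genes, and shares over all probes are not given.

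**Figure D4:**
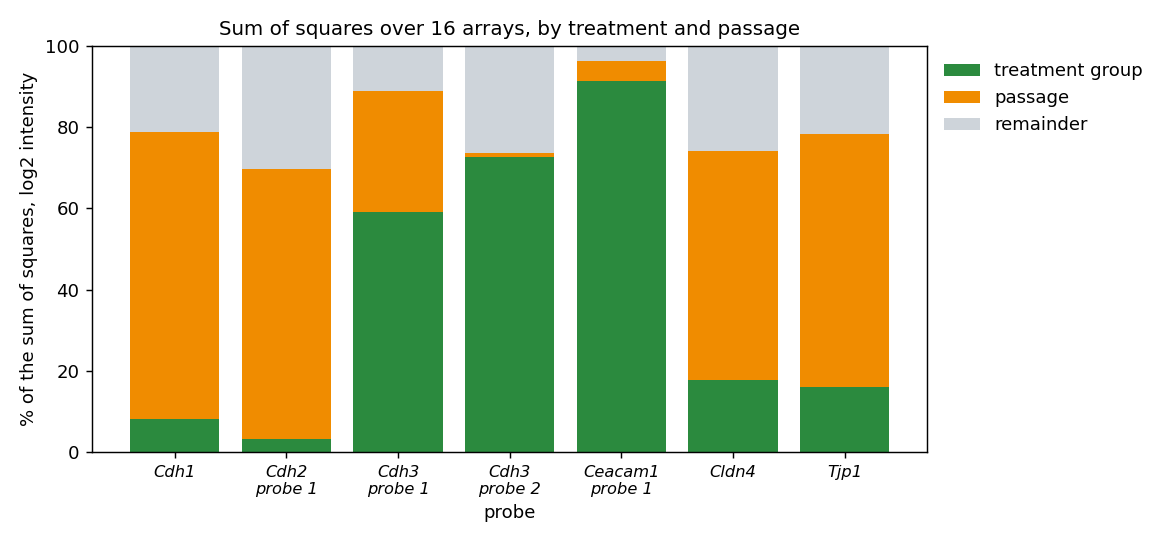
Share of the sum of squares of log2 intensity over 16 arrays (vertical axis, percent) that lies between treatment groups, between passages and in the remainder, for the 7 adhesion gene probes above background (horizontal axis). The treatment share is 91.5% for Ceacam1, and the passage share is 70.7% for Cdh1.

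Each passage is 1 set of cultures, so passage, culture date and anything else done to a set together cannot be told apart. The p-values and intervals of the passage tests come from the spread of single arrays. They do not measure a spread between sets of cultures. In a limma F test across passages with treatment in the model, 4 of the 14 member probes passed, beside 7.18% of all probes and 14.7% of the probes above background on 4 or more arrays. They were Cdh1 (adjusted p = 0.0103), Cldn4 (0.0107), Tjp1 (0.02) and Cdh3 probe 1 (0.0359). All 4 calls were lost with a normexp offset of 16, with a floor of 16 in place of normexp and with the deposited normalized values, and Cdh3 probe 1 was lost in 9 of the 10 alternatives.

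Cdh1 was 10.89 ± 0.11 at passage 20, 10.68 ± 0.06 at passage 21, 10.58 ± 0.04 at passage 23 and 10.42 ± 0.22 at passage 24. At passage 20 its 4 arrays stood at or above 10.77, and at passage 24 they ran from 10.17 to 10.69. Passages 23 and 24 together were 0.29 lower than passages 20 and 21 (95% confidence interval -0.42 to -0.16, a 1.22-fold difference, adjusted p = 0.0109). Without the SB arrays or without the DMSO arrays this call was lost, as it was with median scaling. The interval of this contrast rests on the spread of single arrays, and passages of the same side differed too.

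Cldn4 was 9.77 ± 0.07 at passage 20, then 9.35 ± 0.34, 9.23 ± 0.22 and 9.21 ± 0.18. The 4 arrays of passage 20, from 9.67 to 9.85, stood above all arrays of the later passages except SB replicate 2, at 9.85. Passages 23 and 24 were 0.33 lower than passages 20 and 21 (95% confidence interval -0.50 to -0.16, adjusted p = 0.0245). This call was lost without the Activin arrays, without the KSR arrays and under each of the 4 other ways to scale or floor the values. Passages 20 and 21, the early side, also differed from each other, at 9.77 and 9.35. Of the 14 probes 2 passed in this contrast, beside 3.79% of all probes, and both were lower, beside 1.82%.

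Tjp1 differed at a single passage, at 8.87 ± 0.09 in passage 23 against 9.20 ± 0.14, 9.19 ± 0.19 and 9.26 ± 0.11 in passages 20, 21 and 24. The 4 arrays of passage 23, up to 8.97, lay below all the others, which began at 9.04. Cdh3 probe 1 was highest at passage 21, at 8.03 ± 0.25 against 7.78 ± 0.18, 7.70 ± 0.21 and 7.70 ± 0.28. Probe 2 of the same gene did not follow it, at 7.42 ± 0.16, 7.48 ± 0.30, 7.46 ± 0.37 and 7.43 ± 0.20 (F test, adjusted p = 0.959). Cdh2 probe 1 ran the other way from Cdh1, at 7.20 ± 0.05, 7.32 ± 0.13, 7.38 ± 0.03 and 7.44 ± 0.03, and did not pass (adjusted p = 0.154). It passed only with median scaling (F test, adjusted p = 0.0308), where the F test call of Cdh1 was lost.

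**Figure D5:**
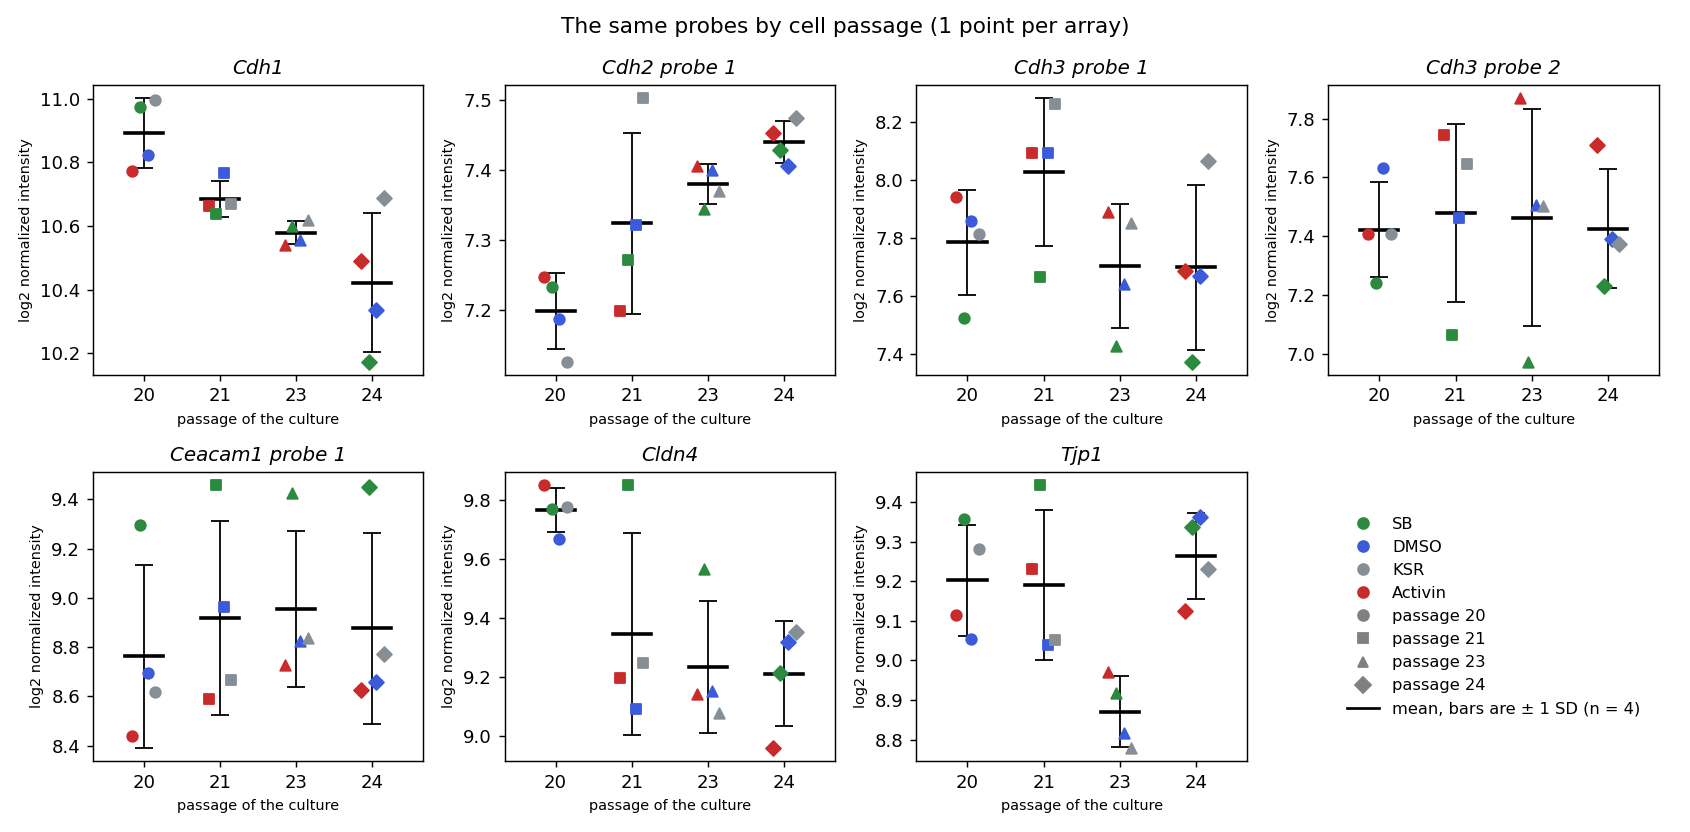
Normalized log2 intensity (vertical axes) of the same 7 probes by passage of the culture (horizontal axes), with 1 point per array, colored by treatment, and bars for the mean ± SD of 4 arrays. Cdh1 runs from 10.89 at passage 20 to 10.42 at passage 24, Cldn4 is highest at passage 20, and Tjp1 is lowest at passage 23.

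Markers of primitive endoderm, the extraembryonic layer that lines the blastocyst cavity, moved with passage, and their part in these differences was not tested. Of the 6 measured markers, 5 were higher at passages 23 and 24 (Gata6, Sox17, Sox7, Dab2 and Pdgfra) and Gata4 was lower. Dab2 differed by 2.27 and Gata6 by 1.21 on the log2 scale. The summed normalized intensity of the 6 genes was 614 to 827 at passage 20, 604 to 776 at passage 21, 1763 to 2025 at passage 23 and 1931 to 2525 at passage 24. Dab2 weighs most in the sums of passages 23 and 24, at 10.30 and 10.59 on the log2 scale, with Gata6 next at 8.29 and 8.31. Sox17 and Sox7 were above background on no array, so their calls rest on dim values. The background threshold moved as well, from 52.9 to 60.0 at passages 20 and 21 to between 61.7 and 68.1 at passages 23 and 24.

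Around the members, passage calls were uneven. They stand beside 7.18% of all probes and 14.7% of the probes above background on 4 or more arrays in the same F test. Of 11 adherens junction partners, 24 tight junction genes and 7 desmosome genes 0 passed the F test in limma, with 0, 4 and 2 at an unadjusted p under 0.05. Only 5, 12 and 3 of them were above background on 4 or more arrays. Of the 7 Epcam partners and epithelial regulators 2 passed, Esrp1 and Cd9. Esrp1, a splicing regulator of epithelial cells, was 0.38 lower at passages 23 and 24 (adjusted p = 0.00326). The keratin Krt7 was 0.34 lower (adjusted p = 0.00739). Of 11 mesenchymal genes 4 passed the F test, in different directions. Acta2, which encodes smooth muscle actin, was 0.76 lower at passages 23 and 24 (adjusted p = 9.73e-08), and Vim was 0.20 lower (0.0282). Tgfbi was 0.12 higher and Col1a1, above background on 0 arrays, was 0.11 lower. Neither of these passed between late and early passages.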

How the data were processed

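RNA from 16 cultures of E14TG2a ES cells, 4 per group, was biotin-labeled and hybridized to Illumina MouseRef-8 BeadChips, and the authors read the arrays with BeadStudio (no source used here gives its version). In the deposited non-normalized intensity the authors had removed a background but applied no scaling across arrays. Their deposited normalized intensity, linear and with values under 40 set to 40 by the authors, served as an alternative.

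Here the non-normalized intensities were background corrected with normexp (saddle-point estimation, offset 50), quantile normalized and put on the log2 scale with limma 3.58.1 in R 4.3.3. The offset compresses the fold changes of dim probes. Linear models were fitted to all 16 arrays and 24606 probes (lmFit and eBayes, two-sided, 12 residual degrees of freedom), and p-values were adjusted by Benjamini and Hochberg over all probes of a comparison at a threshold of 0.05. Treatment comparisons used group means. The passage tests used a model of group plus passage. The scripts were tested on simulated data. Arrays have no depth. Precision rests on how many were run and on the spread of each probe, and residual SDs had a median of 0.138.

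Passage numbers in the labels pair the arrays of the 4 groups. After removal of group means, arrays of the same passage correlated with r from 0.0976 to 0.325 (median 0.215, 24 pairs) and arrays of different passages with r from -0.238 to 0.0995 (72 pairs). Symbols came from the platform annotation, updated by gene identifier, and 20980 probes carried 1 symbol, 1 several and 3625 none. Every probe of the 9 members is reported. A gene of a list is read by its brightest probe, and list genes are named when they passed a treatment comparison, as examples, or for passage after their values were seen. For each member with a called probe, the 3 genes most correlated with its brightest probe over the 16 arrays are named. Of 116 genes in 15 lists 104 were measured. The members and lists were chosen with earlier results of these data known. Alternatives were the passage block, a normexp offset of 16, a floor of 16 without normexp, median scaling, the deposited normalized values, a filter on dim probes, only the groups compared, and leaving out each replicate or array.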

Additional observations from a re-analysis of the deposited data

Results flagged for a closer look

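Over the 14 member probes and 4 groups, 56 sets of 4 arrays were examined for an array far from the other 3, measured as its gap to the nearest array divided by the range of the group. By chance this marks about 1 in 20 groups, and 3 were marked, all from probes above background on 0 arrays. For Epcam, SB replicate 2 stood at 6.61 on the log2 scale with the next array at 6.25, a gap of 0.893 of the range. For Cldn7, KSR replicate 4 stood at 6.47 with the next at 6.15, a gap of 0.969. For Ocln, DMSO replicate 4 stood at 6.76 with the next at 6.41, a gap of 0.856.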

How the results depend on the processing

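The call of Ceacam1 was kept in all 20 alternatives for SB against DMSO, with differences from 0.57 to 0.74, and in all 20 for Activin against SB, with differences from -0.98 to -0.76. Over the 42 results of a detected probe in a comparison and 693 alternatives, 650 kept their side of the threshold, 37 fell below it, 6 rose above it and 0 called differences reversed. Of the 35 results with a direction, 20 kept it in all alternatives. Leaving out replicates moved the number of member probes called between Activin and SB over 1 to 2. With passage as a replicate block 1 of 14 probes passed for SB against DMSO, 0 for Activin against DMSO and 3 for Activin against SB.

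Passage calls were the least stable. The count of 4 in the F test was 0 with a normexp offset of 16, 0 with a floor of 16, 0 with the deposited normalized values, 2 without the Activin arrays (Cdh1 and Tjp1), and 1 without the SB, the DMSO or the KSR arrays. The count of 2 between late and early passages was 1 with the offset of 16, with the deposited normalized values, and without the Activin, the SB or the DMSO arrays. Over all probes that F test called 1767 and, in the same order of settings, 694, 1144 and 962. Median scaling shifted the probes above background by 0.13 between late and early passages. In that contrast it called 3843 in place of 932, with 87.9% in place of 52% higher. It put Cdh1 at -0.11, or -0.24 relative to that shift, and Cldn4 at -0.19, or -0.32. In the F test, median scaling called 3 member probes, Cdh2 probe 1, Cldn4 and Tjp1, and lost Cdh1 (adjusted p = 0.184) and Cdh3 probe 1 (0.165). For SB against DMSO the count over all probes was 76, with the block 150, with the offset of 16 46, with the floor 37, with median scaling 51, with the deposited values 38, with only the 2 groups 49, and without 1 replicate or array 34 to 71. Leaving out KSR replicate 2, the dimmest array, was chosen after seeing the data, and it removed the F test call of Cdh3 probe 1. The cause of these differences was not tested. Probes near the background threshold, among them Cdh2 probe 1 and Cdh3 probe 2, have compressed differences.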
